A study of Mus musculus with 9 samples.

Results

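The Toll-like receptor genes examined here are *Tlr1*, *Tlr2*, *Tlr3*, *Tlr4*, *Tlr5*, *Tlr6*, *Tlr7*, *Tlr8*, *Tlr9* and *Tlr13*, chosen by symbol from the 34638 genes of the lung RNA table. All 10 were found. The table holds whole-lung RNA from 9 wild-type C57BL/6 mice in 3 groups of 3. Control mice received PBS. IL-33 mice received recombinant mouse IL-33, an alarmin released by airway epithelium, at 0.5 µg per mouse into the trachea on each day from day 0 to day 3. IL-33+LM8 mice received the same IL-33 after intraperitoneal LM8, an inhibitor of the adaptor MyD88, at 10 mg/kg. The methods give female mice of 6 to 8 weeks with lungs taken on day 4 for the first 2 groups; for the LM8 group the sex, age and day were not given in the sources used here. No group received LM8 without IL-33, and no vehicle injection is described for the other groups, so LM8 and its injection cannot be told apart. Whole lung mixes many cell types: more cells of a type and more RNA per cell cannot be told apart at any of the genes below.

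Toll-like receptors recognise conserved microbial molecules and pass the signal on through adaptors that bind their intracellular TIR domain. TLR1, TLR2, TLR4, TLR5 and TLR6 sit at the cell surface and detect lipoproteins, lipopolysaccharide or flagellin. TLR3, TLR7, TLR8, TLR9 and TLR13 sit in endosomes and detect nucleic acids. All of them signal through MyD88 except TLR3, which uses TRIF, while TLR4 uses both. MyD88 also serves the IL-33 receptor. In the lung the family is carried by macrophages, dendritic cells, granulocytes and B cells, and some members by epithelium.

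Sequence before the start of transcription is shown for 4 members, as context for the values below. RefSeq promoters were at hand for 8 of the 10 genes, with 10 starts in all; *Tlr4* and *Tlr7* had none. The 250 bases before the start are printed 5′ to 3′ on the gene's strand (GRCm38.p6), for genes whose window meets no exon of GENCODE M21. *Tlr9* and *Tlr8* were the members with the lowest fold changes under LM8, *Tlr6* was called higher in both groups given IL-33, and *Tlr5* was lower in both IL-33 groups. Capitals mark the PU box (GAGGAA, bound by PU.1 in myeloid and B cells) in the first pair and the interferon regulatory factor core (AANNGAAA) in *Tlr6*, either strand.
Tlr9 (chr9:106222348-106222597, plus strand): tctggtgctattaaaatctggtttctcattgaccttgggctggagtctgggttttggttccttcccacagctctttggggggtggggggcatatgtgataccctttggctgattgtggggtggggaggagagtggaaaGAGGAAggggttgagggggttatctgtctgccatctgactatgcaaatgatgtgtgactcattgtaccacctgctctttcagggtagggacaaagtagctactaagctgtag
Tlr8 (chrX:167264330-167264579, minus strand): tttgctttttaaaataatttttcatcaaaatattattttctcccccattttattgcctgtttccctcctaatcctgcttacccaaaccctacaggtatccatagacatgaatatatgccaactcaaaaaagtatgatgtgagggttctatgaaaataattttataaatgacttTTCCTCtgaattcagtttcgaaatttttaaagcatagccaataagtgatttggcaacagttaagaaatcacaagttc
Tlr6 (chr5:64959167-64959416, minus strand): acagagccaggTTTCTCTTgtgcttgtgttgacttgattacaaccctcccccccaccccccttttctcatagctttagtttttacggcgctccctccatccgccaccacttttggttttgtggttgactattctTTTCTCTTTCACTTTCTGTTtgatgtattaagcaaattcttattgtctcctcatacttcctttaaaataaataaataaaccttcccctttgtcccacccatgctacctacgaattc
Tlr5 (chr1:182954538-182954787, plus strand): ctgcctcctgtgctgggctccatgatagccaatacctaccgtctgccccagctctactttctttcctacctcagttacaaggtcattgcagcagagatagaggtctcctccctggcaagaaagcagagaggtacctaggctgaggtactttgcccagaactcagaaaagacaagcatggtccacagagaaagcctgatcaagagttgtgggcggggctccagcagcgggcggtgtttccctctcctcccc
A PU box stood at 4 of the 10 member starts (*Tlr1*, *Tlr8*, *Tlr9* and *Tlr13*) and in 23.3% of all 32851 promoter windows of the same length. The interferon regulatory factor core was also found at 4 starts (*Tlr1*, *Tlr2*, *Tlr3* and *Tlr6*), against 21.3% of all windows. In *Tlr6* there were 4 such matches, all at the start printed above, of which 3 overlap each other by their ends from 116 to 97 bases before it. The other *Tlr6* start had no match to any of the 3 motifs, and the *Tlr1* PU box and core lay at different starts. The κB consensus was found at 2 starts (*Tlr2* and *Tlr3*), against 7.25% of all windows. No match to any of the 3 motifs lies in the *Tlr5* window. These matches are letters in a window and were not tied to the values below.

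Counts were tested for each pair of groups with edgeR's quasi-likelihood test, and every adjusted p below is its Benjamini-Hochberg value over all genes tested (16831, or 16829 where LM8 mice were set against control mice). To be called, a gene needed an adjusted p under 0.05 and a log2 fold change of at least 1 in size. Levels are in FPKM, fragments scaled to gene length and library size, and are given for mice 1, 2 and 3 of each group in that order. Log2 fold changes come from the counts and carry a standard error (SE). Total counts on genes were between 53877663 and 90607218 per mouse. The lung markers were present in every mouse, with a summed epithelial level of at least 14343 FPKM. For a single gene, an exact two-sided permutation test of 3 mice against 3 cannot give a p under 0.1. The comparisons share groups, so each gene's 3 fold changes are not independent of each other.

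With IL-33, 6 of the 10 receptor genes rose: *Tlr1*, *Tlr6*, *Tlr7*, *Tlr8*, *Tlr9* and *Tlr13*. None was called lower. Over all genes tested, 10.8% were called higher and 6.24% lower. The median log2 fold change was 1.24 over the members and -0.01 over all genes. Without the minimum fold, 7 members were higher and 2 were lower at an adjusted p under 0.05, the additions being *Tlr4* above and *Tlr3* and *Tlr5* below, while 27.4% of all genes were higher and 27.2% lower. *Tlr2* did not pass. With LM8 added, 1 member was called against IL-33 alone, *Tlr9*, which fell, where 1.46% of all genes were called higher and 3.93% lower. Without the minimum fold, *Tlr1*, *Tlr7*, *Tlr8* and *Tlr9* were lower and *Tlr2* was higher, against 13.9% of all genes lower and 12.6% higher. In IL-33+LM8 mice against control mice, 3 members were called higher (*Tlr1*, *Tlr6* and *Tlr13*) and none lower, where 5.87% of all genes were called higher and 1.46% lower. Without the minimum fold, 8 members were higher and *Tlr5* was lower in that comparison, against 16.3% and 13.4% of all genes, and *Tlr3* did not pass.

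**Figure D1:**
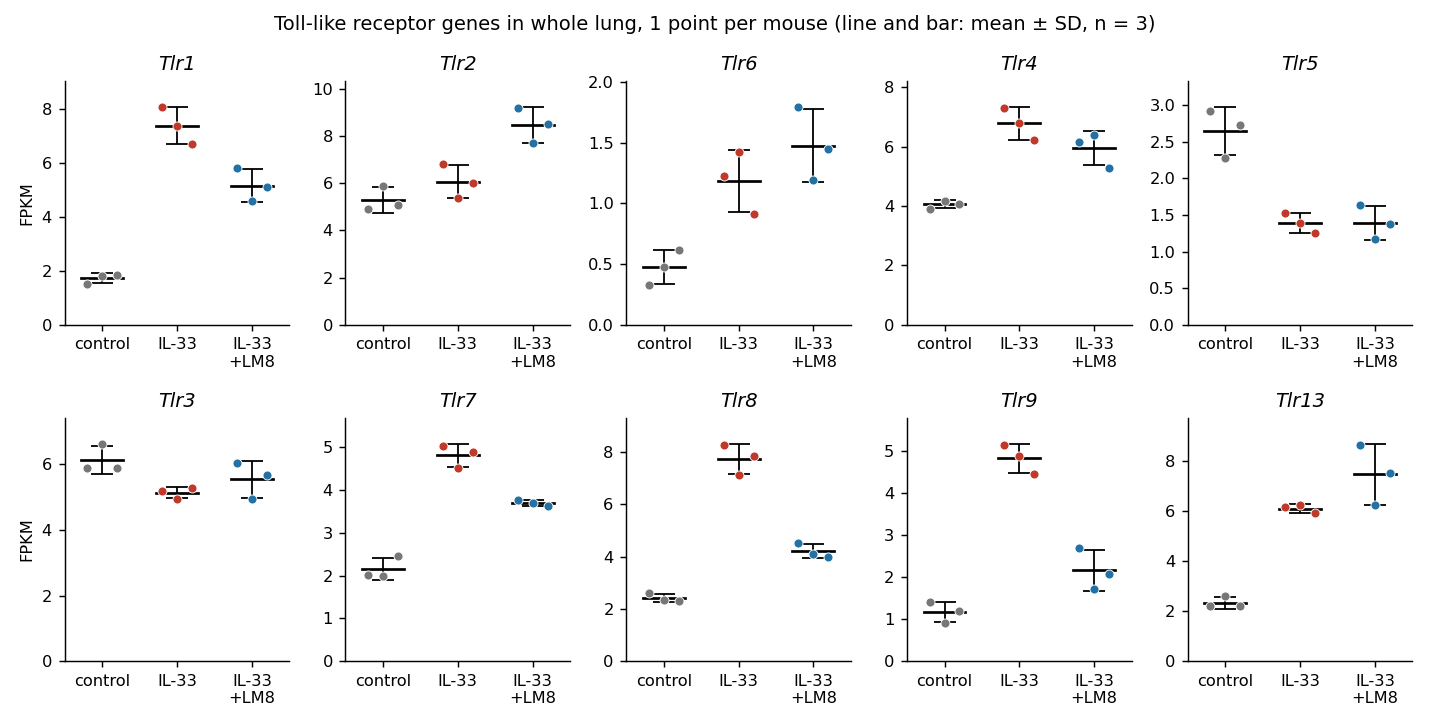
FPKM of the 10 Toll-like receptor genes in each mouse; points are mice, the horizontal line is the group mean and the bar the SD (n = 3), each panel with its own linear axis from 0. *Tlr8* and *Tlr9* are highest in IL-33 mice, *Tlr2* is highest in IL-33+LM8 mice, and *Tlr5* is highest in control mice, in each case without overlap with the other groups.

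TLR1, TLR2 and TLR6 recognise bacterial lipoproteins, with TLR2 pairing either with TLR1, for triacylated forms, or with TLR6, for diacylated ones. *Tlr1* (ENSMUSG00000044827, chr5:65082022-65090904 in the coordinates of the deposited table) stood at 1.52, 1.82 and 1.84 FPKM in control mice, 8.08, 7.38 and 6.72 FPKM in IL-33 mice, and 5.80, 4.58 and 5.09 FPKM in IL-33+LM8 mice. The 3 groups did not overlap, with the LM8 mice between the other two. *Tlr1* rose with IL-33 by a log2 fold change of 2.10 (SE 0.12, adjusted p = 9.46e-06), with *Tlr9* at 2.03 (SE 0.17) less than 1 SE away; without control replicate 1 the values were 2.02 for *Tlr1* and 2.18 for *Tlr9*. Against IL-33 alone its log2 fold change with LM8 was -0.52 (SE 0.11, adjusted p = 0.0118), and without IL-33 replicate 1 the adjusted p was 0.0503. It remained called against control, at 1.59 (SE 0.13, adjusted p = 0.000259).

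*Tlr2* (ENSMUSG00000027995, chr3:83743579-83749074) stood at 4.89, 5.89 and 5.07 FPKM in control mice, 6.79, 5.39 and 6.01 FPKM in IL-33 mice, and 9.19, 7.68 and 8.51 FPKM in IL-33+LM8 mice. Control and IL-33 mice overlapped, and every LM8 mouse lay above all others. The log2 fold change with IL-33 was 0.20 (SE 0.12, adjusted p = 0.197). With LM8 added, *Tlr2* was higher than with IL-33 alone by 0.48 (SE 0.11, adjusted p = 0.0152). It was the only member higher at an adjusted p under 0.05 in that comparison. Without IL-33 replicate 3 this adjusted p was 0.0567. Against control the log2 fold change was 0.69 (SE 0.11, adjusted p = 0.00351), under the minimum for a call.

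*Tlr6* (ENSMUSG00000051498, chr5:65109374-65117440) had the lowest mean of the members in both control and IL-33 groups. It was measured at 0.331, 0.479 and 0.613 FPKM in control mice, 1.22, 1.42 and 0.909 FPKM in IL-33 mice, and 1.79, 1.19 and 1.45 FPKM in IL-33+LM8 mice, from 81 to 509 counts per mouse. Control mice lay below all others, and both IL-33 groups overlapped. *Tlr6* rose with IL-33 by 1.32 (SE 0.28, adjusted p = 0.00622) and was 0.31 apart between IL-33+LM8 and IL-33 mice (SE 0.23, adjusted p = 0.358). In IL-33+LM8 mice it rose over control by 1.65 (SE 0.27, adjusted p = 0.00462). Its control mean of 0.474 FPKM is below the filter of 0.5 FPKM, which it passed through the other groups; with every counted gene tested it was called in the same 2 comparisons. *Tlr1* and *Tlr6* lie side by side and are near copies in part of their coding sequence: 603 runs of 31 bases are shared, which is 19.5% of those in *Tlr1* and 16.3% of those in *Tlr6*, so reads from that stretch may be split between them. No other pair of Toll-like receptor genes shared a run of that length.

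TLR4 recognises lipopolysaccharide together with MD-2 and CD14, and TLR5 recognises flagellin. *Tlr4* (ENSMUSG00000039005, chr4:66745821-66848521) stood at 3.92, 4.19 and 4.06 FPKM in control mice, 7.32, 6.81 and 6.23 FPKM in IL-33 mice, and 6.17, 6.39 and 5.30 FPKM in IL-33+LM8 mice. Both IL-33 groups lay above control and overlapped each other. It was higher with IL-33 by 0.74 (SE 0.08, adjusted p = 0.000157) and differed by -0.19 between LM8 and IL-33 mice (SE 0.10, adjusted p = 0.197). Against control the LM8 mice were higher by 0.57 (SE 0.09, adjusted p = 0.00446). An unnamed gene on the same strand, ENSMUSG00000121059, overlaps *Tlr4* and was listed at 3.26 to 4.80, 6.91 to 7.30 and 5.09 to 6.65 FPKM in the 3 groups, so the division of reads between them is uncertain.

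*Tlr5* (ENSMUSG00000079164, chr1:182782353-182804010) moved the other way. It was measured at 2.92, 2.28 and 2.73 FPKM in control mice, 1.53, 1.39 and 1.25 FPKM in IL-33 mice, and 1.64, 1.17 and 1.38 FPKM in IL-33+LM8 mice. Every IL-33 and LM8 mouse lay below every control mouse, and these 2 groups spanned nearly the same range. The log2 fold change with IL-33 was -0.93 (SE 0.14, adjusted p = 0.000978), just short of the minimum of 1, and -1.03 without control replicate 2, when it was called. Between LM8 and IL-33 mice it was 0.00 (SE 0.16, adjusted p = 0.991). Against control the LM8 mice were at -0.91 (SE 0.16, adjusted p = 0.00634), and at -1.03 and called without IL-33+LM8 replicate 1. Epithelial markers were also lower with IL-33 as a sum, which is mostly *Sftpc* and *Scgb1a1*, 14343 to 15572 FPKM against 32937 to 35780 FPKM in control mice, and stood at 27137 to 29359 FPKM with LM8, where *Tlr5* averaged 1.40 FPKM beside 1.39 FPKM with IL-33 alone. Of the 6 markers, 4 were lower with IL-33 at an adjusted p under 0.05, *Epcam* was higher (0.27) and *Foxj1* was at -0.03. Their part in the *Tlr5* result was not tested.

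Among the endosomal receptors, TLR7 and TLR8 recognise single-stranded RNA and TLR9 recognises unmethylated CpG DNA. These 3 genes rose with IL-33 and were lower when LM8 was added. *Tlr7* (ENSMUSG00000044583, chrX:166087925-166113554) stood at 2.01, 1.98 and 2.46 FPKM in control mice, 5.03, 4.51 and 4.87 FPKM in IL-33 mice, and 3.75, 3.68 and 3.61 FPKM in IL-33+LM8 mice. The groups did not overlap. *Tlr7* rose with IL-33 by 1.16 (SE 0.11, adjusted p = 0.000130), the called value nearest to the minimum. With LM8 it was at -0.38 against IL-33 alone (SE 0.08, adjusted p = 0.0120), and without IL-33 replicate 1, IL-33 replicate 3 or IL-33+LM8 replicate 3 the adjusted p was between 0.0526 and 0.0538. Against control the LM8 mice were higher by 0.79 (SE 0.12, adjusted p = 0.00278).

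*Tlr8* (ENSMUSG00000040522, chrX:166025692-166047295), the neighbour of *Tlr7* on the X chromosome, stood at 2.61, 2.33 and 2.33 FPKM in control mice, 8.25, 7.12 and 7.85 FPKM in IL-33 mice, and 4.51, 4.11 and 3.99 FPKM in IL-33+LM8 mice. Again no 2 groups overlapped. It rose with IL-33 by 1.67 (SE 0.10, adjusted p = 1.26e-05). With LM8 it was lower than with IL-33 alone by a log2 fold change of -0.88 (SE 0.09, adjusted p = 0.000505), the value nearest below the minimum. Mean FPKM was then 0.543 times that of IL-33 mice and 1.74 times that of control mice, and against control the log2 fold change was 0.81 (SE 0.11, adjusted p = 0.00214).

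*Tlr9* (ENSMUSG00000045322, chr9:106099797-106104082) stood at 1.41, 0.922 and 1.21 FPKM in control mice, 5.13, 4.89 and 4.45 FPKM in IL-33 mice, and 2.69, 1.73 and 2.07 FPKM in IL-33+LM8 mice. All LM8 mice lay between the other groups without overlap. *Tlr9* rose with IL-33 by 2.03 (SE 0.17, adjusted p = 6.56e-05). It fell with LM8 by a log2 fold change of -1.16 (SE 0.16, adjusted p = 0.00211), the single call among the members in that comparison. Mean FPKM dropped to 0.448 times that of IL-33 mice. On log2(FPKM + 1) with limma the difference was -0.89, under the minimum. Against control the LM8 mice were at 0.89 (SE 0.23, adjusted p = 0.0257). This last value turned on single mice: without control replicate 1 or IL-33+LM8 replicate 2 it was 1.04 or 1.02 and called, and without any other 1 of the 6 the adjusted p was between 0.0598 and 0.0653.

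*Tlr13* (ENSMUSG00000033777, chrX:105186810-105204099) encodes a receptor for bacterial ribosomal RNA that mice have and humans lack. It stood at 2.21, 2.60 and 2.20 FPKM in control mice, 6.14, 6.23 and 5.90 FPKM in IL-33 mice, and 8.64, 6.22 and 7.52 FPKM in IL-33+LM8 mice. Control mice lay apart below, and the lowest LM8 mouse fell within the range of the IL-33 mice. *Tlr13* rose with IL-33 by 1.38 (SE 0.10, adjusted p = 2.56e-05). The difference between LM8 and IL-33 mice was 0.29 (SE 0.11, adjusted p = 0.104), and without IL-33+LM8 replicate 2 it was 0.40 (adjusted p = 0.0157). Against control it rose by 1.69 in LM8 mice (SE 0.14, adjusted p = 0.000249), the largest member value in that comparison.

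*Tlr3* (ENSMUSG00000031639, chr8:45848702-45864117), whose product detects double-stranded RNA and signals through TRIF, was measured at 5.89, 6.62 and 5.89 FPKM in control mice, 5.20, 4.96 and 5.27 FPKM in IL-33 mice, and 6.04, 4.94 and 5.68 FPKM in IL-33+LM8 mice. IL-33 mice lay below control mice, and LM8 mice overlapped both. The log2 fold change with IL-33 was -0.26 (SE 0.07, adjusted p = 0.0211), and without control replicate 2 or any 1 of the IL-33 mice the adjusted p was between 0.0559 and 0.0852. With the replicate number as a block it was 0.0660. It was 0.11 between LM8 and IL-33 mice (SE 0.09, adjusted p = 0.401) and -0.13 between LM8 and control mice (SE 0.10, adjusted p = 0.351). The opposite-strand gene *Gm45542* overlaps *Tlr3* and reached at most 0.566 FPKM in any mouse.

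**Figure D2:**
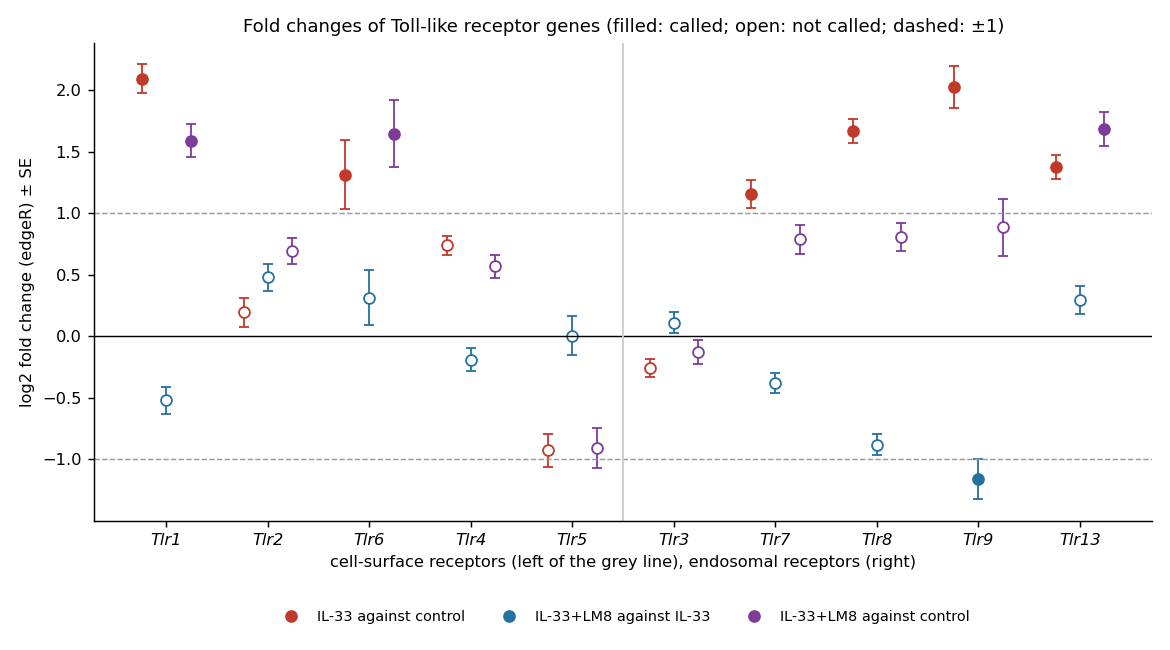
Log2 fold changes from edgeR with their SE for the 10 genes in the 3 comparisons (n = 3 mice per group); filled points are called and open points are not, and dashed lines mark 1 and -1. With LM8 against IL-33, *Tlr9* at -1.16 is the only filled point.

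The pool of receptor transcripts grew with IL-33 and changed in make-up. Summed FPKM of the 10 genes, a per-length level, was 28.4 ± 0.701 in control mice, 51.4 ± 2.86 in IL-33 mice and 45.5 ± 4.34 in LM8 mice (SD, n = 3). In control mice *Tlr3* (6.13 ± 0.425 FPKM) and *Tlr2* (5.28 ± 0.532 FPKM) stood first, with overlapping ranges. In IL-33 mice the order was led by *Tlr8* (7.74 ± 0.574 FPKM), *Tlr1* (7.39 ± 0.677 FPKM) and *Tlr4* (6.79 ± 0.547 FPKM), each overlapping the next. In IL-33+LM8 mice *Tlr2* (8.46 ± 0.757 FPKM) and *Tlr13* (7.46 ± 1.21 FPKM) led and overlapped. *Tlr5* and *Tlr6* were the last pair in both groups given IL-33, with overlapping ranges, while in control mice *Tlr5* (2.65 ± 0.330 FPKM) overlapped *Tlr8* (2.42 ± 0.163 FPKM) and lay above *Tlr7*, *Tlr1* and *Tlr9* in mean.

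As a share of the summed FPKM, *Tlr8* made up 8.54% ± 0.768, 15.1% ± 0.831 and 9.26% ± 0.523 (SD, n = 3) in control, IL-33 and IL-33+LM8 mice. *Tlr9* took 4.17% ± 0.957, 9.38% ± 0.381 and 4.72% ± 0.602. For both, the IL-33 mice lay above the other groups, whose ranges overlapped. *Tlr2* had 18.6% ± 1.43 in control mice, 11.8% ± 0.895 in IL-33 mice and 18.6% ± 0.419 in LM8 mice, so its share was lowest in IL-33 mice although its level was not. *Tlr3* held 21.6% ± 1.05, 10.0% ± 0.579 and 12.2% ± 0.477. *Tlr13* held 8.21% ± 0.625, 11.9% ± 0.604 and 16.3% ± 1.24, with no overlap between groups. The 5 endosomal receptors together made up 50.1% ± 0.788, 55.7% ± 1.48 and 50.6% ± 0.905 of the pool in the 3 groups (SD, n = 3), with the IL-33 mice apart from the others. Shares sum to a fixed total, so that a higher share of 1 gene lowers the rest.

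**Figure D3:**
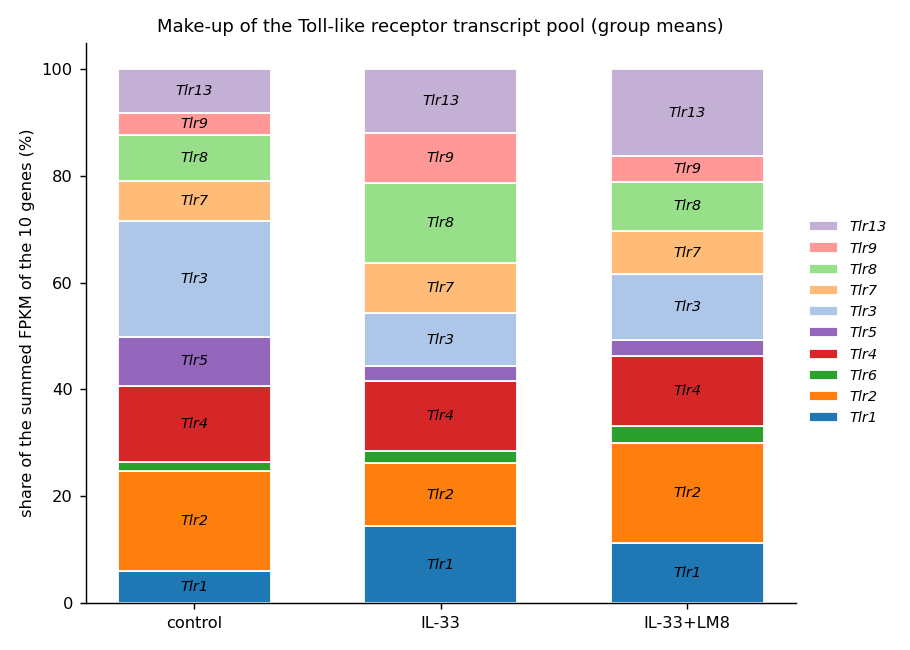
Share of each gene in the summed FPKM of the 10 Toll-like receptor genes, as stacked group means in percent (n = 3 mice per group), cell-surface receptors below and endosomal ones above. The *Tlr8* band is 15.1% in IL-33 mice and 8.54% and 9.26% in the other groups.

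Profiles over the 9 mice were compared as centred log2 CPM (counts scaled to library size), by the root mean square difference, and are given as a description. Among the members, *Tlr4* and *Tlr7* were the closest pair (0.21), followed by *Tlr8* and *Tlr9* (0.24) and by *Tlr6* and *Tlr13* (0.25). Over all tested genes, the profiles nearest to *Tlr7* were those of *Relb*, an NF-κB subunit (0.06), and *Il2rg*, the common cytokine receptor chain (0.07). *Tnfrsf11a*, which encodes RANK (0.08), and *Arhgap25* (0.08) were nearest to *Tlr8*. *Relt* (0.10) and *Ccdc88b* (0.12) were nearest to *Tlr1*, and *Gm10521* (0.15) and *Carmil2* (0.15) to *Tlr9*. For *Tlr13* these were *Jaml* (0.15) and *Fgr*, a myeloid Src-family kinase (0.16), and for *Tlr6* *Gad1-ps* (0.23) and *Tspan4* (0.24). All these profiles share the same 9 libraries and the same 3 groups.

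Of 36 other genes of the pathway, 35 passed the filter and *Sarm1* did not. With IL-33, 15 were called higher (42.9%) and none lower, beside 10.8% and 6.24% of all genes, and with no minimum fold 22 were higher and 3 lower. With LM8 against IL-33, 2 were called higher (*S100a8* and *S100a9*) and 1 lower (*Tnc*), or 5.71% and 2.86% beside 1.46% and 3.93% of all genes. With no minimum fold 4 were higher and 10 lower. In LM8 mice against control mice, 11 were called higher (31.4%, beside 5.87% of all genes) and none lower. Their median log2 fold changes were 0.55, -0.07 and 0.69 in the 3 comparisons, beside -0.01, -0.01 and 0.00 over all genes. The remaining mouse receptors, *Tlr11* and *Tlr12*, sensors of profilin, both rose with IL-33, by 1.55 (SE 0.30, adjusted p = 0.00358) and 1.75 (SE 0.18, adjusted p = 0.000175). *Tlr11* had a control mean below 0.5 FPKM and passed the filter through the other groups; with every counted gene tested its adjusted p was 0.00901. Their mean levels were low, at 0.416 ± 0.164, 1.23 ± 0.139 and 0.765 ± 0.230 FPKM for *Tlr11* and 0.650 ± 0.0446, 2.20 ± 0.368 and 1.46 ± 0.286 FPKM for *Tlr12* (SD, n = 3) in control, IL-33 and LM8 mice.

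Of the 9 accessory and trafficking proteins, 3 were called higher with IL-33 and none lower, beside 10.8% and 6.24% of all genes. *Unc93b1*, the chaperone that carries nucleic acid-sensing receptors to endosomes, had a mean of 23.9 ± 0.638, 62.7 ± 0.722 and 38.2 ± 1.57 FPKM (SD, n = 3) in control, IL-33 and IL-33+LM8 mice. It rose by 1.39 with IL-33 (SE 0.04, adjusted p = 1.32e-06) and was at -0.72 with LM8 against IL-33 (SE 0.05, adjusted p = 0.000126). *Ly86* and *Cd180*, whose products form a receptor complex related to TLR4 and MD-2, rose by 2.67 (SE 0.11) and 1.19 (SE 0.15). With LM8, *Ly86* was at -0.87 (SE 0.08, adjusted p = 0.000390) and *Cd180* at -0.25 (SE 0.18, adjusted p = 0.368). *Cd14*, the lipopolysaccharide co-receptor, had a mean of 22.5 ± 2.27, 39.7 ± 0.636 and 54.4 ± 3.48 FPKM. Its log2 fold change with LM8 against IL-33 was 0.45 (SE 0.06, adjusted p = 0.00205), the same sign as that of *Tlr2*, which it also serves.

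Among 4 tested adaptors, only *Ticam2*, which links TLR4 to TRIF, was called with IL-33, at 1.83 (SE 0.13, adjusted p = 3.36e-05). *Myd88*, the product of which LM8 inhibits, had a mean of 18.0 ± 0.288, 26.4 ± 1.49 and 29.9 ± 1.38 FPKM in the 3 groups. It was higher with IL-33 by 0.55 (SE 0.06, adjusted p = 0.000240) and differed by 0.18 between LM8 and IL-33 mice (SE 0.07, adjusted p = 0.0989). None of the 6 kinases and ligase was called in any comparison. *Irak4*, the kinase first recruited by MyD88, had the largest value among them with IL-33, 0.80 (SE 0.09, adjusted p = 0.000258). Of the 4 negative regulators, *Irak3* and *Tnfaip3* rose with IL-33, by 1.09 (SE 0.17) and 1.61 (SE 0.06), and both were also called in LM8 mice against control. *Irf5* and *Irf7*, transcription factors downstream of the endosomal receptors, rose by 2.10 (SE 0.10) and 1.28 (SE 0.11). With LM8 they were at -0.64 (SE 0.11, adjusted p = 0.00469) and -0.61 (SE 0.14, adjusted p = 0.0171) against IL-33 alone, while *Irf3* was at 0.15 (SE 0.05, adjusted p = 0.0664).

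Endogenous ligands described for TLR2 or TLR4 came last among the lists, with 5 of 7 called higher with IL-33, beside 10.8% of all genes. *S100a9*, an alarmin of neutrophils, had a mean of 15.0 ± 3.14, 47.9 ± 8.61 and 509 ± 46.9 FPKM in the 3 groups, and rose by 3.41 with LM8 against IL-33 (SE 0.14, adjusted p = 3.29e-05). *S100a8*, its partner, rose by 3.51 (SE 0.12, adjusted p = 3.11e-05). *Tnc*, the matrix protein tenascin C, fell by a log2 fold change of -1.55 (SE 0.20, adjusted p = 0.00128) in the same comparison. *Vcan* rose by 1.84 with IL-33 (SE 0.12, adjusted p = 2.14e-05) and was at -0.08 with LM8 against IL-33 (SE 0.15, adjusted p = 0.743). The acute-phase gene *Saa3* rose by 5.69 with IL-33 (SE 0.35, adjusted p = 1.43e-05) and was at -0.88 with LM8 (SE 0.23, adjusted p = 0.0275). Its control mean of 0.419 FPKM is below the filter, which it passed through the other groups; with every counted gene tested the adjusted p with IL-33 was 2.70e-05. *Hmgb1* passed in no comparison.

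**Figure D4:**
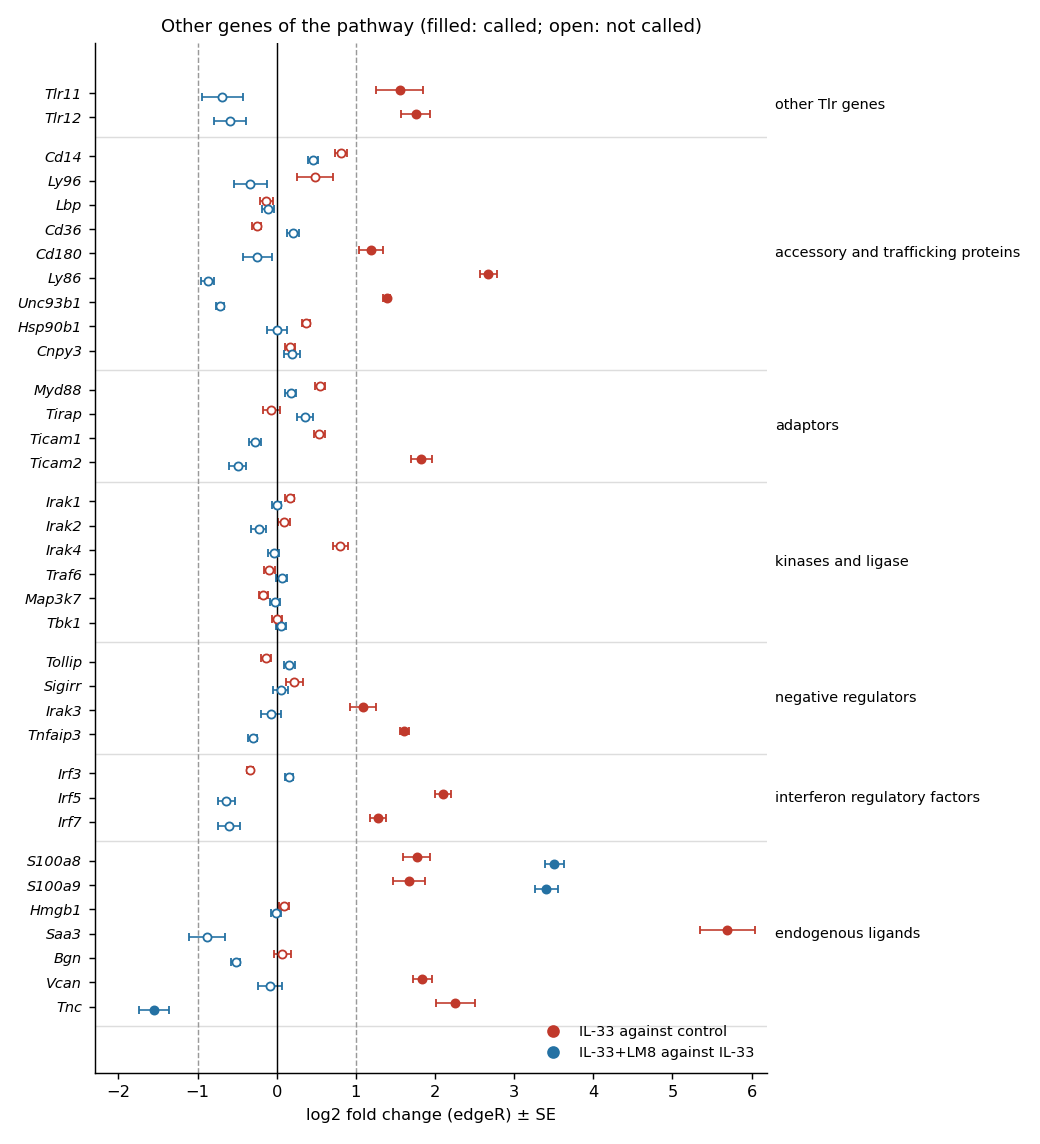
Log2 fold changes from edgeR with their SE for 35 other genes of the pathway, grouped by role, for IL-33 against control and IL-33+LM8 against IL-33 (n = 3 mice per group); filled points are called. With LM8, *S100a8* at 3.51 and *S100a9* at 3.41 lie above 1 and *Tnc* at -1.55 below -1.

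Markers of cells that carry these receptors moved between the groups too. With the filter, 10.8% of all genes were called higher and 6.24% lower with IL-33. With LM8 against IL-33 the shares were 1.46% and 3.93%. No such share is given here for the test of every counted gene. All 6 B cell markers rose with IL-33, and with LM8 all 6 were lower at an adjusted p under 0.05, none of them called. Their summed level was 36.5 to 46.4 FPKM in control, 128 to 166 FPKM in IL-33 and 82.8 to 96.4 FPKM in LM8 mice, the order also seen for *Tlr1*, *Tlr7*, *Tlr8* and *Tlr9*. Markers of monocytes and interstitial macrophages, 6 of 8 called higher with IL-33 and 3 called lower with LM8, summed to 95.8 to 108, 511 to 542 and 241 to 252 FPKM in the same order. That sum is mostly *C1qa*, *C1qb* and *C1qc*, the 3 called lower with LM8. *Cx3cr1* was lower with IL-33 (-0.64, adjusted p = 0.00636, edgeR), and *Ly6c2* was higher with LM8 against IL-33 (0.34, adjusted p = 0.0351). The 3 pan-leukocyte markers stood at 63.3 to 68.5, 244 to 257 and 159 to 171 FPKM in control, IL-33 and LM8 mice. Eosinophil markers, 6 of 7 tested called higher with IL-33 and 7 called lower with LM8, summed to 102 to 115, 591 to 647 and 142 to 178 FPKM, and *Epx* was listed at 0 in all control mice. That sum is mostly *Ear2*, and *Ear1* was lower with IL-33 (-0.48, adjusted p = 0.0158, edgeR). Of the eosinophil markers *Ccr3*, *Prg2*, *Ear6* and *Il5ra* were below 0.5 FPKM in control mice and entered the test through the IL-33 mice. With every counted gene tested, 7 of 8 eosinophil markers were called higher with IL-33 and 8 lower with LM8. Markers of plasmacytoid dendritic cells, a known carrier of *Tlr7* and *Tlr9*, had sums of 8.63 to 12.1, 5.61 to 8.48 and 6.85 to 8.67 FPKM. With IL-33 *Cox6a2*, which makes up most of the sum, was called lower, while *Klk1* was called higher and *Siglech* was higher at an adjusted p of 0.00707 (edgeR). None of the 3 tested passed with LM8 against IL-33. *Ccr9* was under the filter. With every counted gene tested it was called higher with IL-33 (1.56, adjusted p = 0.00320, edgeR), the only marker of this list then called higher. In LM8 mice against control it was called at 1.06 (adjusted p = 0.0330).

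Neutrophil markers went the other way with LM8. With every counted gene tested, 6 of 8 were called higher with IL-33 and 5 of 8 again with LM8 against IL-33, with sums of 26.3 to 32.9, 189 to 212 and 876 to 1024 FPKM in control, IL-33 and LM8 mice, and *Stfa2l1* was listed at 0 in control mice. The filter brought in *Ly6g* and *Stfa2l1* through the groups where they are high. With it all 8 were called higher with IL-33, beside 10.8% of all genes. That list holds *S100a8* and *S100a9*. *Tlr2* and *Cd14* were also highest in LM8 mice. So were *Ly6c2*, *Plet1* and *Myd88*, which are not on the neutrophil list, without overlap with the other groups. *Tlr6* and *Tlr13* had their highest means in LM8 mice, overlapping IL-33 mice. Alveolar macrophage markers summed to 46.0 to 61.5, 83.7 to 92.2 and 72.0 to 99.0 FPKM. With IL-33 *Atp6v0d2* was called higher, *Marco* and *Krt79* were called lower, and *Plet1* was higher (0.73, adjusted p = 2.70e-05, edgeR). The list's median log2 fold change, -0.95, was that of *Fabp1*, which did not pass (SE 1.26, adjusted p = 0.557). With LM8 against IL-33, *Marco* and *Krt79* were called higher and *Atp6v0d2* lower. Conventional dendritic cell markers summed to 26.3 to 28.5, 22.2 to 26.4 and 23.3 to 24.4 FPKM, with *Xcr1* and *Flt3* called higher with IL-33 and *Clec9a* and *Zbtb46* lower at an adjusted p under 0.05. Endothelial markers summed to 529 to 611, 343 to 377 and 529 to 547 FPKM, and fibroblast markers to 129 to 155, 257 to 305 and 123 to 130 FPKM. The fibroblast list was split with IL-33, as *Col1a1* and *Col1a2* rose while *Pdgfra* fell and *Dcn* was at -0.71. The part of any of these cell types in the receptor values was not tested.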

How the data were processed

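Whole-lung RNA of 9 mice, 3 in each of 3 groups taken from the treatment labels, was read by paired-end Illumina sequencing. A sequencing company made the values, and the authors deposited them as raw counts beside FPKM for each gene and mouse. The submitters' processing notes name HISAT2 2.0, StringTie 1.3.0, Bowtie 0.12.2 and mm10 without giving their roles. The table's coordinates differ from those of GRCm38, so they are printed as deposited, with no build. Strand use in counting is not given in the sources used here.

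Counts were tested with edgeR 4.0.16 (R 4.3.3, TMM, quasi-likelihood F) on the 6 mice of each comparison, for genes whose FPKM averaged 0.5 or more over the 9 mice and that had a count above 0 in the 6. The SE is the size of the log2 fold change divided by the square root of F. All 10 members passed the filter. The fits were tested on simulated data. Alternatives used DESeq2 1.42.0, limma 3.58.1 on log2(FPKM + 1) and log2(FPKM + 0.1), other filters and factors, 1 fit of all mice, leaving out single mice, and the replicate number as a block. Deviations from the group means correlated between same-numbered control and IL-33+LM8 mice (0.389 to 0.732), which by the rule used here would pair them. Same-numbered mice of the other pairs of groups ranged from -0.553 to 0.381. Differently numbered control and IL-33+LM8 mice reached 0.322, below the same-numbered values of these groups. Differently numbered mice reached 0.732 between control and IL-33 and 0.759 between IL-33 and IL-33+LM8, so these values do not establish a pairing. The highest values link control replicate 3, IL-33 replicate 1 and IL-33+LM8 replicate 3, the libraries with the largest total counts of their groups. The main tests were unpaired, and the labels give no origin for the numbers. Between libraries of a group, squared count differences averaged 22.0 or more times those of sampling over 16837 genes. This is a mean over genes, not the ratio of a typical gene. No library was treated as a copy. If the labelled samples are not separate mice, p-values measure only the spread between libraries.

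The members, pathway lists, marker lists and motifs were chosen with earlier results of these data known. All members are named. From the lists, the text names some of the called genes, some of the most abundant ones and markers that moved unlike others of their list. For likeness it names the 2 nearest genes of each called member. *Myd88*, *Ticam2*, *Irak4*, *Irf3*, *Cd14* and *Hmgb1* were named also for their role. Such markers, and these role genes, were picked after their values were seen. List counts were repeated with every counted gene tested, a choice made after seeing the data. Genes under the filter were *Sarm1*, *Epx* and *Ccr9*. Promoters are from RefSeq (GRCm38.p6), and runs of 31 bases come from the protein-coding transcripts of GENCODE M21.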

Additional observations from a re-analysis of the deposited data

How the results depend on the processing

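The counts of called members (6 with IL-33, 1 with LM8 against IL-33, 3 with LM8 against control) were the same with every counted gene tested, median-of-ratios factors, DESeq2, limma on log2(FPKM + 0.1), 1 fit of all 9 mice and the replicate block. The block gave 6, 1 and 3 and changed no call of a member. It moved *Tlr3* with IL-33, which was not called, to an adjusted p of 0.0660 (edgeR). With a mean FPKM of at least 5, only 4 members were tested and the counts were 1, 0 and 1. With no minimum fold they were 9, 5 and 9. limma on log2(FPKM + 1), a scale that understates changes of low genes, gave 4, 0 and 2: *Tlr6* (0.56) and *Tlr7* (0.88) with IL-33, *Tlr9* (-0.89) with LM8 against IL-33 and *Tlr6* (0.75) with LM8 against control then lay under the minimum. Leaving out 1 mouse at a time, the counts ranged from 6 to 7, stayed at 1, and ranged from 3 to 4. The 7 came without control replicate 2 (*Tlr5*), and the 4 without control replicate 1 or IL-33+LM8 replicate 2 (*Tlr9*) or without IL-33+LM8 replicate 1 (*Tlr5*). The near-zero difference of *Tlr5* between LM8 and IL-33 mice changed sign, to -0.0025 on log2(FPKM + 0.1) and -0.0036 with the block, and ranged from -0.12 to 0.11 with 1 mouse left out (-0.05 without IL-33 replicate 3, -0.12 without IL-33+LM8 replicate 1). Of 402 alternative values for single members, 390 kept their sign and their call, though in 15 of these the adjusted p alone crossed 0.05. Depth limits *Tlr6* most, with 81 to 177 counts in control mice; precision elsewhere is set by 3 mice per group.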
